A study of Mus musculus with 6 samples.

Results

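Among 18420 loci in a count table from differentiating mouse embryonic stem (ES) cells, 35 protein-coding loci were well counted in every ES cell library at day 0 and close to empty in every embryoid body library at day 6. They were chosen by these values: at least 500 normalized counts in each of the 3 day 0 libraries and under 100 in each of the 3 day 6 libraries. A normalized count is the number of reads at a locus divided by the library's size factor. The rule was applied to 13137 loci that held a reference coding transcript, at least 2 exons and a span under 400 kb, and that lay on an autosome. Another 8128 of those loci reached 500 in every day 0 library without meeting the day 6 part. The fall of the 35 loci is therefore a description and carries no test. All 6 libraries came from 1 ES cell line with an Nkx2.5-EmGFP BAC reporter, in which a cardiac gene's regulatory region on a large inserted DNA clone drives a green fluorescent protein. Day 0 cells were undifferentiated and grown with the self-renewal cytokine LIF, either on feeder layers of mouse embryonic fibroblasts or on gelatin. Day 6 cells had been aggregated in hanging drops into embryoid bodies for cardiac differentiation. The labels name E14Tg2A.4, a 129/OlaHsd subline, in the growth protocol and C57BL/6J as the strain. They give neither which libraries had feeders nor whether replicates were separate cultures, so spread and p-values below measure only the difference between these samples. Gene symbols were assigned by exact exon-intron structure, and 34 of the 35 loci received one.

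ES cells keep a self-renewing state through transcription factors such as Esrrb, Klf4 and Zfp42, which are lost as embryoid bodies form the germ layers. Embryonic fibroblasts, the cells of a feeder layer, make collagens and fibronectin and respond to serum and cytokines with matrix metalloproteinases and chemokines. In bulk RNA, fewer cells of a type and less RNA per cell cannot be told apart. Total reads in the table ranged from 106306699 to 114092201 per library. Of the 15 ES cell marker genes listed, 10 could be named. By limma (adjusted p threshold 0.05) 7 of those fell by day 6, none rose and 3 were not called, where 21.8% of all loci tested fell. Zfp42, for example, had 74323, 121896 and 80344 normalized counts at day 0 and 11428, 14071 and 15116 at day 6 (log2 change -2.74, SE 0.21, limma adjusted p = 4.6e-05). Pou5f1 and Sox2 were not among the named loci. Tdgf1, among the 7 that fell, passed the filter on low values (at least 10 in 3 libraries) through day 0 alone. Of 7 mesoderm and endoderm markers, 4 were named and all 4 had higher values at day 6. T, Eomes and Afp were under 10 in every day 0 library and passed the filter through day 6 alone, so their calls are not used. T and Eomes also shared 86.9% and 78.8% of their exonic bases with other loci. Foxa2 had 36.6, 83.9 and 56.8 at day 0 and 1617, 2175 and 2913 at day 6. Of 5 cardiac markers 3 were named, of which Tnnt2 rose, Myl7 fell and Actc1 was called higher by limma but not by edgeR.

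Promoter sequences are shown for 4 of the 35 loci with high day 0 levels, because their promoters held a match to one of 3 motifs searched. Each is the 250 bases before the RefSeq transcription start (GRCm38.p6), 5′ to 3′ on the gene's strand. Capitals mark the matches.
Mmp13, chr9:7272264-7272513, plus strand: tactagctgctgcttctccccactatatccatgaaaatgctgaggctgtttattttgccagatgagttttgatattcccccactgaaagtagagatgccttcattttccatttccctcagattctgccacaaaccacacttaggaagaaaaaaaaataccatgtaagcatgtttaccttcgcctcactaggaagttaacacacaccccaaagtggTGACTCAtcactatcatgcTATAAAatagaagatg
Mmp10, chr9:7502092-7502341, plus strand: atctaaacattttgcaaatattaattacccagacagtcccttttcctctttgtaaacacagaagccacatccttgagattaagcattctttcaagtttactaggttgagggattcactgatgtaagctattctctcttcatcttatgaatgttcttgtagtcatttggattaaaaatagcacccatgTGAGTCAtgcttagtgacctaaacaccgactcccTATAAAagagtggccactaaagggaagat
Tm4sf1, chr3:57301989-57302238, minus strand: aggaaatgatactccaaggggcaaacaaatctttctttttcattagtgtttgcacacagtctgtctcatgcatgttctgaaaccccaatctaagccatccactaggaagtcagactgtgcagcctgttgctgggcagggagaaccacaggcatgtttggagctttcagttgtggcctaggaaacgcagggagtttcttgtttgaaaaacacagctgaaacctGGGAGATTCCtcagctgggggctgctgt
S100a4, chr3:90603520-90603769, plus strand: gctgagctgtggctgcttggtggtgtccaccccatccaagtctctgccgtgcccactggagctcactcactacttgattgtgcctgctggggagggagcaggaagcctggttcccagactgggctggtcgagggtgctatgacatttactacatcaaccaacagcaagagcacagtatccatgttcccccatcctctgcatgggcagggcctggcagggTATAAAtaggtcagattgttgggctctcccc
The motifs were AP-1 (TGANTCA), NF-kB (GGGA and TTCC with any 2 bases between) and the TATA box (TATAAA), read on both strands and picked after the loci were known. AP-1 and NF-kB are transcription factors of stress and cytokine signalling. In Mmp13 the AP-1 match lay 35 to 29 bases before the start and the TATA match 16 to 11 bases before it. In Mmp10 they lay 63 to 57 and 29 to 24 bases before the start. The NF-kB match in Tm4sf1 lay 28 to 19 bases, and the TATA match in S100a4 31 to 26 bases, before the start. RefSeq promoters were found for 25 of the 34 named genes (31 promoters). An AP-1 match was in 4 of the 31 (Mmp13, Mmp10, Cp and Piwil4), against 6.75% of all 32851 promoters. NF-kB was in 1 of 31 against 1.21%, and TATAAA in 6 of 31 against 12.4%. A match is a run of letters and not a measured binding site.

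The 35 loci had mean day 0 levels from 684 to 6792 normalized counts, with a median of 1501, and mean day 6 levels from 0.696 to 89.7, with a median of 39.6. The ratio of the stage means ran from 7.63-fold in Klhdc8a to 4426-fold in Mcpt8, which had 2 reads at day 6, and its median was 37.3-fold. Per kilobase of exon, their median day 0 level was 281 normalized counts, against 631 in the other 8128 loci, and Ccl7 (7103) and Mcpt8 (2905) were the highest of the 35. Their exonic length (median 4231 against 8952 nt), exon number (7 against 12) and span (18743 against 43041 nt) were all smaller in the median. No exonic base was shared with another locus in 32 of the 35 (91.4%), against 57.5% of the others. Elavl3 shared 34.4% of its exonic bases, Slc5a4b 4.82% and Atcay 1.3%. All 35 were called lower at day 6 by limma, where 21.8% of the 17145 loci tested were called lower, and by edgeR, where 23.9% were, but the rule had used this contrast. The median log2 change was -4.98 in the 35 and 0.02 over all loci tested.

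**Figure D1:**
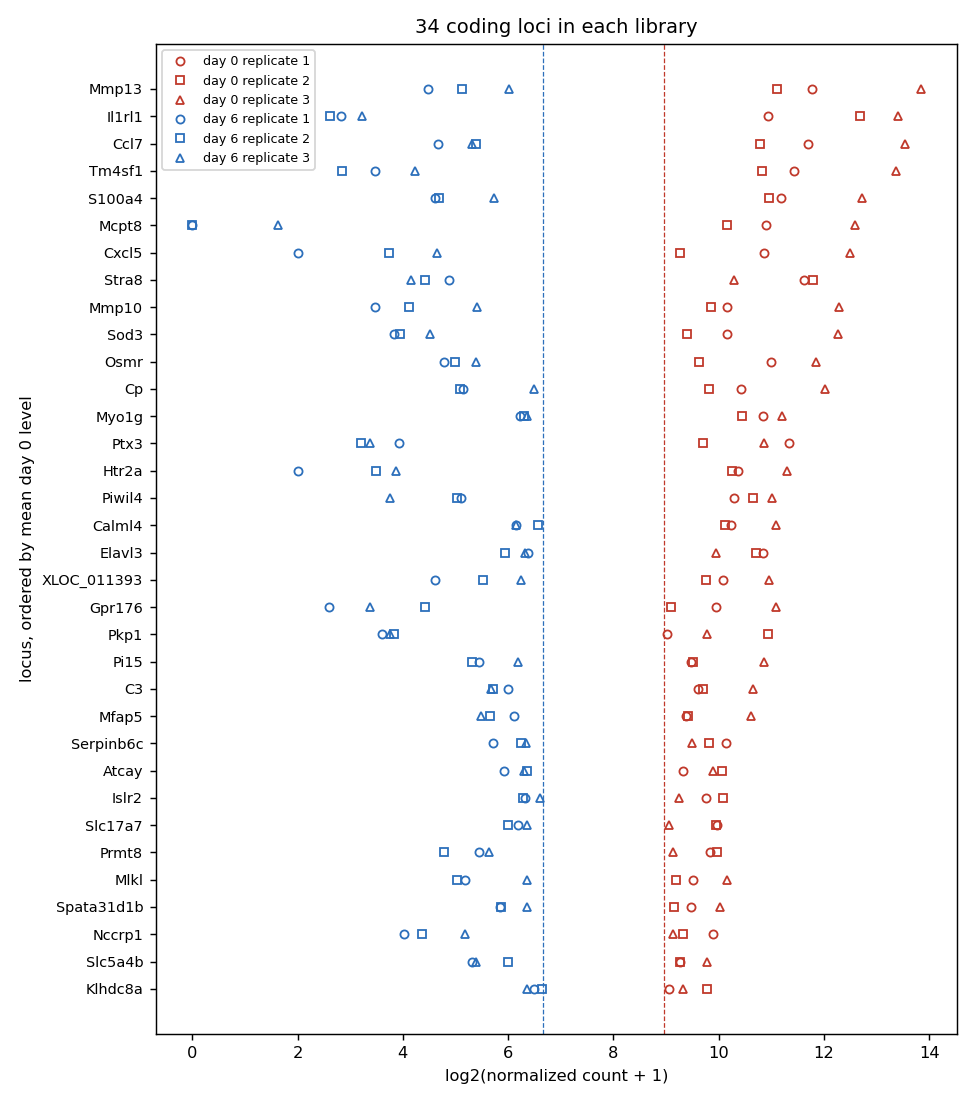
Normalized counts of 34 of the 35 loci in each library on a log2(normalized count + 1) axis, ordered by mean day 0 level, with dashed lines at the thresholds of 100 (blue) and 500 (red). Red symbols are day 0 and blue symbols day 6. In 23 of the 34 rows the red triangle, day 0 replicate 3, is the highest of the red symbols.

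Products secreted from the cell formed the largest group by role, with 12 loci. Roles were assigned after the names were known. Mmp13, a collagenase (locus XLOC_036241, chr9:7272514-7283333 in mm9, plus strand), had the highest level of all 35. It had 3478, 2192 and 14706 normalized counts in day 0 replicates 1, 2 and 3, and 21.3, 33.8 and 63.7 in day 6 replicates 1, 2 and 3. Day 0 replicate 3 was several times above both other ES cell libraries, so the day 0 mean of 6792 ± 6883 (SD, n = 3) was no larger than its own spread. The day 6 mean was 39.6 ± 21.8, which gives a 172-fold ratio. Mmp10, a stromelysin (XLOC_036245, chr9:7502360-7510240), had the same shape at a lower level. Its values were 1145, 930.0 and 5006 at day 0 and 10.1, 16.4 and 41.8 at day 6, a 104-fold ratio.

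The chemokines Ccl7 and Cxcl5, which attract monocytes and neutrophils, followed the same order. Ccl7 (XLOC_004800, chr11:81859214-81861025) had 3332, 1752 and 11943 normalized counts at day 0 and 24.3, 41 and 38.6 at day 6. Cxcl5 (XLOC_026910, chr5:91187977-91192450) had 1865, 615 and 5789 at day 0 and 3.04, 12.3 and 24 at day 6. With 9.41-fold between its highest and lowest ES cell library, Cxcl5 was the most uneven of the 35 loci at day 0. Sod3, the extracellular superoxide dismutase (XLOC_026787, chr5:52755043-52760977), came next with 7.31-fold, from 1146, 675 and 4936 normalized counts. Its day 6 values were 13.2, 14.4 and 21.9, and its symbol rests on a single intron length.

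Mcpt8, a serine protease of granules in basophils (XLOC_011221, chr14:56701000-56704169), had the lowest day 6 level. It had 1904, 1146 and 6188 normalized counts at day 0 and 0, 0 and 2.09 at day 6. Over each stage these were 9496 and 2 reads. Scaled by the summed size factors of each stage, their ratio was 4451, with an exact 95% interval of 1232 to 36757 that covers counting error only. Mcpt8 belongs to a family of similar genes between which reads may be split, so its count is uncertain to that extent. No locus of the 35 was at 0 in all 3 day 6 libraries.

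The other secreted products were chosen for mention after their values were seen. Ptx3, a soluble pattern-recognition protein, had 2591, 833 and 1849 at day 0 and 14.2, 8.2 and 9.39 at day 6. It was the only secreted product that was not highest in day 0 replicate 3. Cp, the copper-carrying ferroxidase ceruloplasmin, had 1373, 904 and 4142 at day 0. Complement C3, the microfibril protein Mfap5 and the peptidase inhibitor Pi15 were nearly even in day 0 replicates 1 and 2 and about doubled or more in replicate 3, as in C3 with 777, 829.6 and 1613. The highest day 0 library exceeded the lowest by more than 2-fold in all 12 secreted products.

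Receptors and membrane proteins not filed as neuronal made up 6 loci, and all 6 were highest in day 0 replicate 3. The neuronal loci below hold further membrane proteins, such as Islr2 and Slc17a7, that were not. Il1rl1, the receptor for interleukin 33 (XLOC_000122, chr1:40486450-40522260), had 1951, 6600.3 and 10859 normalized counts at day 0 and 6.08, 5.13 and 8.35 at day 6. Its ratio was 992-fold, the day 0 mean being 6470.2 ± 4455 and the day 6 mean 6.52 ± 1.66 (SD, n = 3). Its lowest ES cell library was replicate 1, where most of the group had replicate 2 lowest. Tm4sf1, a small membrane protein of endothelial and mesenchymal cells (XLOC_023114, chr3:57090986-57105841, minus strand), had 2771, 1819 and 10575 at day 0 and 10.1, 6.15 and 17.7 at day 6. Osmr, the oncostatin M receptor, had 2032, 788 and 3708 at day 0 and 26.4, 30.8 and 40.7 at day 6. The serotonin receptor Htr2a and the orphan receptor Gpr176 had ratios of 189-fold and 106-fold. Slc5a4b, of the sodium-coupled sugar transporter family, was the most even of the 35 at day 0. It had 615, 611 and 878 normalized counts at day 0 and 38.5, 62.5 and 40.7 at day 6. Osmr, Htr2a and Gpr176 were picked after their values were seen.

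Germ-line genes were 3 of the 35. Stra8, a retinoic acid responsive gene required for meiosis (XLOC_029135, chr6:34870600-34889342), had 3135, 3535 and 1248 normalized counts at day 0 and 28.4, 20.5 and 16.7 at day 6. It was lowest in day 0 replicate 3, the reverse of the secreted products. Piwil4, which acts with small RNAs against transposons in fetal male germ cells, had 1254, 1601 and 2059 at day 0 and 33.5, 31.8 and 12.5 at day 6. Spata31d1b, of a family expressed in spermatogenesis with closely similar copies beside it, had a ratio of 11.8-fold.

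Genes filed as neuronal were 5 of the 35, and none of them was highest in day 0 replicate 3 or differed by more than 2-fold between ES cell libraries. The serotonin receptor Htr2a, also known from neurons but filed with the receptors, had 1327, 1226 and 2520 normalized counts at day 0. It was highest in replicate 3, 2.05-fold above its lowest library, so this split depends on the filing. Slc17a7, a vesicular glutamate transporter, had 995, 982 and 529 normalized counts at day 0 and 72, 62.5 and 81.4 at day 6. Islr2, a membrane protein of growing axons, had 865, 1076 and 606 at day 0 and 79.1, 76.9 and 96 at day 6. Atcay, a protein of cerebellar neurons, had 635, 1063 and 951 at day 0 and 59.8, 81 and 78.3 at day 6. The RNA-binding protein Elavl3 (1837, 1675 and 981) and the arginine methyltransferase Prmt8 (912, 1006 and 559) were named after their values were seen. Both were lowest in day 0 replicate 3, as Slc17a7 and Islr2 were. The ratios of the group, 10.1-fold to 20.9-fold, lay below the median of the 35. Of 3 neural marker genes listed, 2 were named, and both were highest in day 0 replicate 2. Pax6, a neural transcription factor, had 240, 1299.8 and 544 normalized counts at day 0 and was lower at day 6 (log2 change -2.52, SE 0.54, limma adjusted p = 0.00641). Nes, an intermediate filament of neural progenitors, had 1117, 1707 and 895 at day 0 and was not called. Pax6 and Nes shared 57.0% and 48.8% of their exonic bases with other loci, so their counts are less certain as gene levels.

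The remaining 8 named loci code for other intracellular proteins and did not share one order. S100a4, a calcium-binding protein widely used to mark fibroblasts (XLOC_022644, chr3:90407279-90409967), had 2330.1, 1982 and 6751 normalized counts at day 0 and 23.3, 24.6 and 52.2 at day 6. Pkp1, a desmosomal plakophilin, stood out in the other direction, with 517, 1953 and 871 at day 0 and 11.2, 13.3 and 12.5 at day 6. Serpinb6c, a protease inhibitor with near copies beside it, had 1127, 901 and 724 at day 0 and 51.7, 74.8 and 80.4 at day 6. Calml4, a calmodulin-like protein, had 1203, 1117 and 2183 at day 0, with Myo1g and Mlkl also highest in replicate 3. The unnamed locus, XLOC_011393 (chr14:111147800-111154371), had 1081, 862 and 1986 at day 0 and 23.3, 45.1 and 75.2 at day 6.

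The ES cell libraries differed more at the 35 loci than at the 8128 other loci as a whole, of which 1417 were called lower by limma. The coefficient of variation (SD over mean) at day 0 had a median of 46.3%, from 21.8 to 103.7, against 19.9% in the 8128 other loci. The highest ES cell library was more than 2-fold above the lowest in 21 of 35 (60%), against 15.6% of the others. Falling loci that were mostly outside the 35 were uneven too. Where the day 0 mean was 8 to 16 times the day 6 mean (62 loci, 6 of them among the 35), the median coefficient was 35.1%. In that class 51.6% exceeded 2-fold. At 4 to 8 times (218 loci, 1 of them among the 35) these values were 28.3% and 36.7%. Without day 0 replicate 3 the median coefficient of variation of the 35 was 17.2% over the 2 remaining libraries, with no matching value for the others. Day 0 replicate 3 was highest in 24 of the 35 (68.6%), where it was highest in 23.6% of the others. Replicate 2 was highest in 6 (17.1%, against 43.6%) and replicate 1 in 5 (14.3%, against 32.8%). The full order 3, 1, 2 held in 18 of the 35 (51.4%) and in 12.6% of the others. The 24 loci highest in replicate 3 had a median ratio of 65.0-fold between stages, and the other 11 had 20.2-fold. A high value in replicate 3 itself raises the day 0 mean of those 24.

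The share of loci highest in day 0 replicate 3 was therefore set against the gap between the lowest day 0 and the highest day 6 value, for all coding loci with at least 500 in each day 0 library. Written as a ratio, the gap was under 0.5 in 1596 loci, of which 26.8% were highest in that library. The share was 20.5% of 4613 loci at 0.5 to 1, 25.1% of 1473 at 1 to 2, 34.4% of 314 at 2 to 4 and 49.1% of 110 at 4 to 8. It reached 65.4% of 26 loci at 8 to 16 and 77.4% of 31 above 16. From a ratio of 0.5 upward each class had a larger share than the one before. The classes up to 4 to 8 consisted mostly of loci outside the 35.

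**Figure D2:**
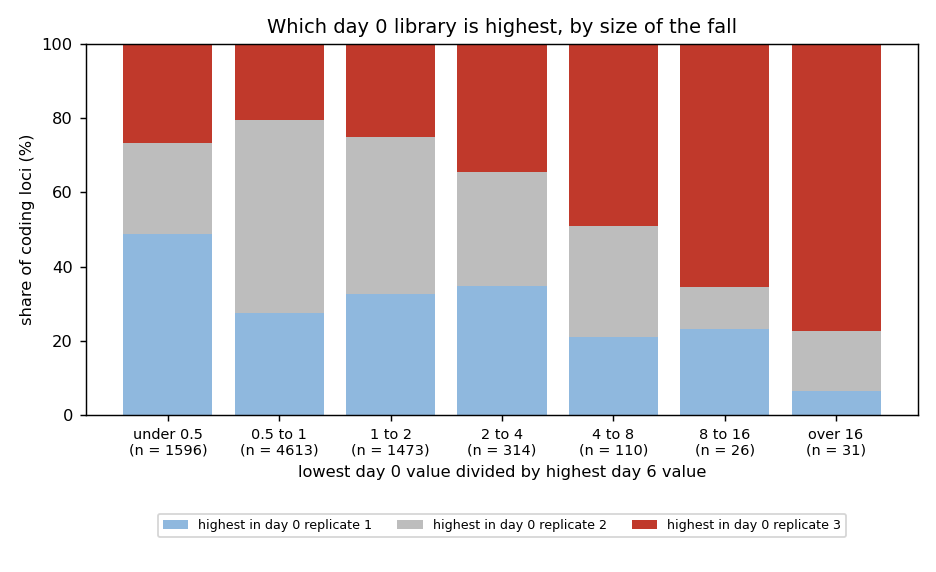
Share of coding loci (percent) whose highest ES cell library was day 0 replicate 1, 2 or 3, in classes of the lowest day 0 value divided by the highest day 6 value, with the number of loci under each bar. The red share, replicate 3, is 20.5% in the class from 0.5 to 1 and 77.4% in the class over 16.

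Marker genes of embryonic fibroblasts mostly had the order 3, 1, 2 as well, in 12 of 15. All 15 on the list were named, among them S100a4 of the 35. Day 0 replicate 3 was highest in 13 of the 15, all but Inhba and Fn1, and replicate 2 was lowest in 13. The median ratio of replicate 3 to replicate 2 was 3.90. The collagen gene Col1a2 had 34649, 15415 and 68494 normalized counts at day 0, and Thy1, a surface protein of fibroblasts, had 5251, 2995 and 8410. The list's summed counts were 591565, 456343 and 731710 in day 0 replicates 1 to 3 and 511060 to 647924 at day 6. More than any other gene, Fn1 (454553, 289244 and 406238 at day 0) set these sums. By limma 7 of the 15 were lower at day 6 and 3 were higher (Twist2, Postn and Pdgfra), against 21.8% and 22.2% of all loci tested. The higher count thus lay near the share over all loci. Another 5 were not called. Fap, among the 7, passed the filter on low values through day 0 alone. S100a4, also among the 7, had been chosen by the rule on this contrast. The same ratio had a median of 1.95 over all 35 loci and 0.970 over the 8128 others.

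ES cell markers had no common order over the day 0 libraries. Of the 10 named, 5 were highest in replicate 3 (Klf2, Dppa3, Nanog, Tbx3 and Tdgf1), 3 in replicate 2 and 2 in replicate 1, and the median ratio of replicate 3 to replicate 2 was 0.989. Dppa3, Nanog, Tbx3 and Tdgf1 shared 47.5%, 53.7%, 75.3% and 93% of their exonic bases with other loci. Tdgf1 had only 11.3, 16.6 and 17.9 counts at day 0. Nr0b1 (58.2%) and Fgf4 (26.1%), both highest in replicate 2, also shared bases, so these counts are less certain as gene levels. Klf4 had 45489, 43702 and 24862 normalized counts, and Klf2 had 19603, 13945 and 19742. The 7 with at least 500 in every ES cell library had ratios from 0.569 to 1.42, with a median of 0.755, against a median of 3.92 in the 11 fibroblast markers at that level outside the 35. Nanog (2.09) and Tbx3 (1.93), both under 500 in every library, had higher ratios. The list's summed counts were 256563, 289805 and 219172 at day 0 and 40615 to 53009 at day 6. Over the 35 loci, 23 had a ratio above the range of those 7 ES cell markers, 7 were within it and 5 (Stra8, Pkp1, Slc17a7, Islr2 and Prmt8) were below it. The part of feeder cells in either pattern was not tested, because no label ties feeders to a library.

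**Figure D3:**
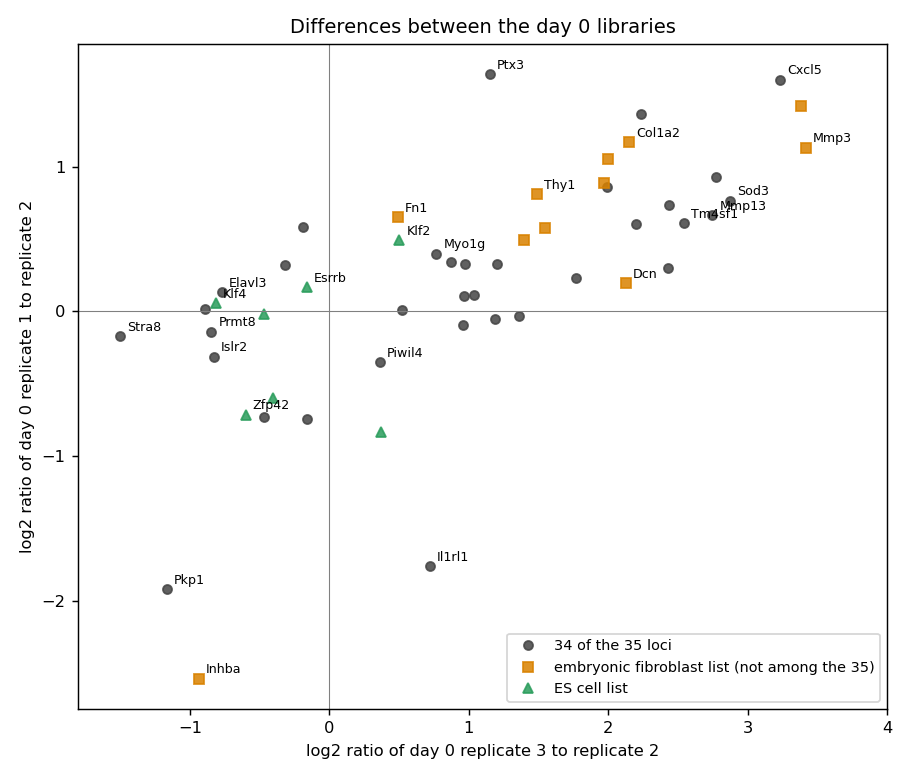
The log2 ratio of day 0 replicate 3 to replicate 2 (horizontal) against that of replicate 1 to replicate 2 (vertical) for 34 of the 35 loci (grey circles), 11 other fibroblast markers (orange squares) and 7 ES cell markers (green triangles), each with at least 500 normalized counts in every day 0 library. Of the 11 orange squares 9 are highest in replicate 3, with Inhba at the lower left as the widest exception.

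The traces left at day 6 were uneven as well. Summed over the 35 loci, day 6 replicates 1, 2 and 3 held 1283, 1397 and 1736 normalized counts (1265, 1363 and 1663 reads). Day 6 replicate 3 was highest in 22 of the 35 (62.9%), against 29.9% of the 8128 others. Its excess was visible in Mmp13, S100a4 and Cxcl5 above. At day 0 the corresponding sums were 50173, 47827 and 119110, so replicate 3 held more than both other ES cell libraries together.

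The 35 loci were scattered over 14 of 19 autosomes. Chromosome 9 held 6 (17.1%, against 5.89% of eligible loci), chromosome 3 held 5 (14.3%, against 5.03%) and chromosome 1 held 4. None lay on chromosomes 4, 12, 16, 18 or 19. Of 21 neighbouring pairs on the same chromosome, whose median gap was 22.9 Mb, only Mmp13 and Mmp10 were under 500 kb apart. These lay 219 kb apart in the cluster of matrix metalloproteinase genes, with Mmp12, Mmp1b, Mmp3 and Mmp1a between them. Of the 4, only Mmp3 passed the filter on low values (at least 10 in 3 libraries). Mmp3, a stromelysin, had 4261, 1947 and 20788 normalized counts at day 0 and 139, 212 and 409 at day 6, so it fell (log2 change -4.59, SE 0.79, limma adjusted p = 0.00214) but stayed above the day 6 threshold. Outside the cluster, Dync2h1 (1.25), Tmem123 (1.35) and Yap1 (0.65) had positive log2 changes that passed the test. Dcun1d5, Birc2 and Birc3 were not called.

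**Figure D4:**
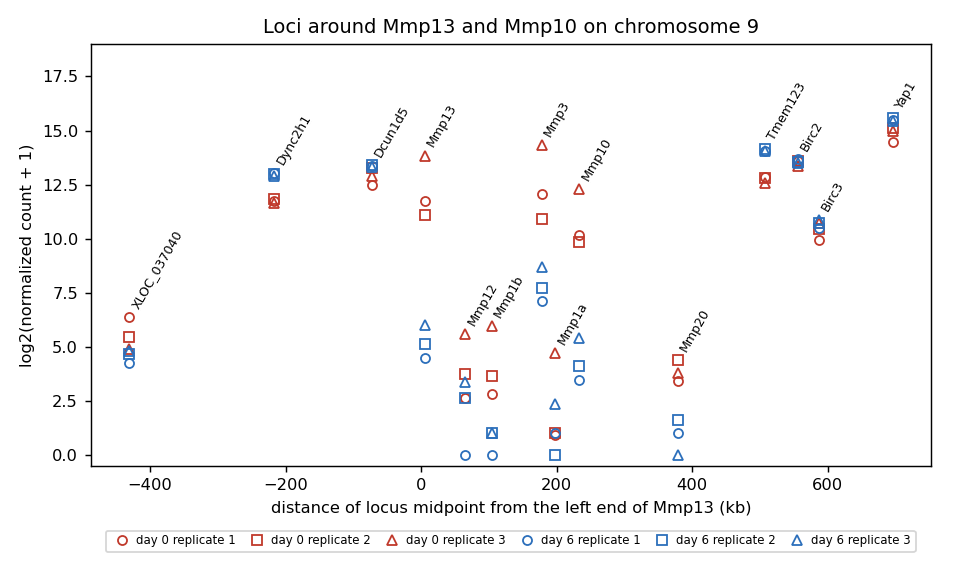
Normalized counts, as log2(normalized count + 1), of the loci around Mmp13 and Mmp10 by distance in kb of each locus's midpoint from the left end of Mmp13. Mmp13, Mmp3 and Mmp10 stand high in red (day 0) and low in blue (day 6), while Dync2h1, Tmem123 and Yap1 to either side are higher at day 6.

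The nearest locus on each side of each of the 35 was tested in the same fit. Loci among the 35 and loci that overlapped the span of the member in question were passed over. There were 70 such neighbours, of which 63 passed the filter. At an adjusted p under 0.05, 25 of the 63 were lower at day 6 (39.7%, against 21.8% of all loci tested) and 10 were higher (15.9%, against 22.2%). Without day 0 replicate 1 the lower neighbours numbered 26 (41.3%, against 24.1%) and the higher ones 18, for which no share of all loci is given. Some neighbours passed the filter through the stage where they were high. Of the 56 that reached 10 in at least 1 library of each stage, 19 were lower (33.9%, against 20% of all such loci). The higher ones numbered 9, for which no share of all such loci is given. On the strand of the adjacent member of the 35, 20 of 37 were lower (54.1%), and on the opposite strand 5 of 26 (19.2%). Both counts keep loci that passed the filter through 1 stage alone. The lower neighbours under 10 in every day 6 library, Ppbp, XLOC_011223 and Ccl11 among them, were all on the same strand. This split was chosen after the values were seen and was not tested. Of the 25 lower neighbours, with those loci still included, 16 were highest in day 0 replicate 3 (64%), against 39.2% of all loci called lower.

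Among the steepest falls were chemokine genes beside Cxcl5 and Ccl7. Ppbp, a platelet chemokine gene 1.30 kb from Cxcl5, had 161, 150 and 580 normalized counts at day 0 and was at 0 in all 3 day 6 libraries. Ccl11, the eosinophil chemokine eotaxin, lay 10.3 kb from Ccl7 and had 138, 23.8 and 378 at day 0 and 0, 0 and 1.04 at day 6. On the other side of Ccl7, 8.26 kb away, the monocyte chemokine Ccl2 had 6200, 3020 and 24153 at day 0 and 190, 249 and 232 at day 6 (log2 change -5.11, SE 0.64, limma adjusted p = 0.000463). Ppbp, Ccl11 and Ccl2 had the order of day 0 replicates 3, 1, 2 seen in Ccl7 and Cxcl5. XLOC_011223, 32.3 kb from Mcpt8, had 459, 272 and 1899 at day 0 and 3.04, 4.1 and 4.18 at day 6. No p is given for Ppbp, Ccl11 and XLOC_011223, which passed the filter on low values through day 0 alone. Il18rap, an interleukin 18 receptor subunit 49.9 kb from Il1rl1, fell by 5.83 (SE 0.77). At day 6 Il18rap reached 10 in replicate 3 alone (15.7), so it passed the filter through its day 0 values and no p is given for it. Ccl2 and Il18rap were picked after their values were seen.

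The largest rises were at low levels. Gm16070, near Pi15, had 3.49, 0 and 11 normalized counts at day 0 and 92.3, 68.7 and 42.8 at day 6 (log2 change 4.12, SE 0.84). Nmrk2, a nicotinamide riboside kinase of muscle 1.96 kb from Atcay, had 0.872, 2.07 and 0 at day 0 and 27.4, 16.4 and 21.9 at day 6, so that it passed the filter through day 6 alone. Igfn1, a muscle immunoglobulin-domain gene near Pkp1, had 10.5, 3.11 and 5.98 at day 0 and rose by 3.53 (SE 0.45). At day 0, Gm16070 reached 10 in replicate 3 alone and Igfn1 in replicate 1 alone. Both therefore passed the filter through their day 6 values, and no p is given for them. Tnnt2, a cardiac troponin on the other side of Pkp1, rose by 1.51 (SE 0.31, limma adjusted p = 0.00534), so both neighbours of Pkp1 were higher at day 6 while Pkp1 was lower. Tnnt2 was picked after its value was seen.

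**Figure D5:**
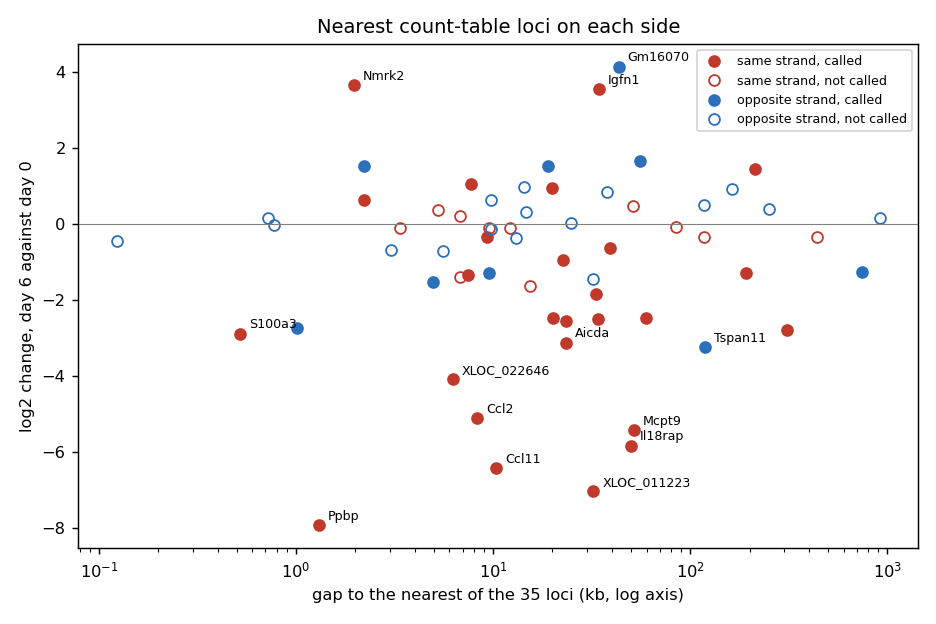
The log2 change from day 0 to day 6 of the 63 tested neighbours against their gap to the nearest of the 35 loci (kb, log axis), in red on the same strand and blue on the opposite strand, filled where limma called a change. The 25 filled points below 0 are mostly red (20). Ppbp, XLOC_011223 and Ccl11 are lowest and passed the filter on low values through day 0 alone. The fitted values of loci at 0 in a stage depend on the added count of 1.

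The thresholds passed through a continuous range of values. Just inside the day 0 threshold were Pkp1 (517 in its lowest library), Slc17a7 (529) and Klhdc8a (532). Just outside it were Apbb1ip (757, 492 and 1569), Col6a4 (847, 487 and 671) and Prelp (885, 478 and 685), all lowest in day 0 replicate 2. Just inside the day 6 threshold were Klhdc8a (98.4 in its highest library), Islr2 (96.0) and Calml4 (93.3), and just outside it were XLOC_001222 and Foxn4 (both 104.4). Klhdc8a, a kelch-repeat protein, lay near both limits, with 532, 882 and 638 at day 0 and 89.2, 98.4 and 81.4 at day 6. The same levels held in 7 loci outside the eligible set. They were the X-linked Glod5, the noncoding Gm2115, 2 intergenic and 2 antisense loci without a reference match, and 1 other. Gm2115, picked after its values were seen, had 2913, 1335 and 10465 at day 0 and 41.6, 25.6 and 74.1 at day 6. Turned around, the rule found 55 coding loci under 100 in every day 0 library and at least 500 in every day 6 library.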

How the data were processed

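RNA from 3 day 0 and 3 day 6 samples was sequenced after poly(A) selection, per the labels' protocols. Per the submitters' processing notes, the tools were TopHat2 2.0.8, Cufflinks 2.1.1, HTSeq 0.5.4p3 and DESeq on mm9. Whether counting used strand is not stated in these notes or labels. The deposited values are normalized counts, a signal that the authors made by dividing reads by a size factor. All values (100%) came out whole, within 0.01 reads, when multiplied by factors from 0.958 to 1.15, so reads were recovered.

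Limma 3.58.1 (R 4.3.3) was fitted to log2(normalized count + 1) with trend and robust settings, over the 17145 loci with at least 10 in at least 3 libraries, with Benjamini-Hochberg adjustment and no replicate term. Fits that leave out a library kept those 17145 loci. edgeR 4.0.16 and DESeq2 1.42.0 on the recovered reads, other thresholds, scalings, filters and added counts were alternatives.

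The identifiers in the deposited files matched no name table. Reference transcripts were therefore paired with GENCODE M21 genes by intron and internal exon lengths, without coordinates. Of 18420 loci, 12746 pointed to 1 gene, and 12702 of those (99.7%) lay on the same chromosome and strand, which was then required. Coordinates of loci are mm9 as deposited, and promoters are RefSeq GRCm38.p6.

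The loci, gene lists and alternatives were chosen with earlier results of these data known. Named loci were the 8 highest at day 0, the 5 most and 5 least even at day 0, pairs under 500 kb apart, the 3 inside and outside each threshold, the 3 neighbours with the largest falls and rises, the 2 highest per exonic kb and any at 0 throughout day 6. Other loci were named after their values were seen. Some loci that met these rules are counted in the totals but not reported here by name.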

Additional observations from a re-analysis of the deposited data

How the results depend on the processing

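The number of coding loci depended on the thresholds: 7 at 1000 and 50, 204 at 250 and 200, and 86 on stage means. Of these, day 0 replicate 3 was highest in 6, 101 and 55 and replicate 2 in 1, 39 and 15. Quantile normalization gave 36 loci (31 shared), TMM scaling 36 and a limit of 10% on shared exonic bases 34. Leaving out single libraries gave 35 to 49 loci and a median day 0 coefficient of variation of 17.2 to 48.8%, the lowest without day 0 replicate 3. The alternatives for the count highest in replicate 3 were chosen after seeing the data. All 35 stayed called lower in every limma, edgeR and DESeq2 fit, where 15.1% to 25.4% of all loci tested were lower. The rule had used this contrast, so that outcome is a description only. Lower neighbours numbered 18 of 49 with a filter of 50 (36.7%, against 20.5% of all loci tested). They numbered 29 of 70 with no filter (41.4%, against 21.9%) and 29 of 63 with DESeq2 (46%, against 25.4%). Without single libraries they numbered 20 of 63 (31.7%, against 15.1%) to 28 of 63 (44.4%, against 25.4%). Higher neighbours, 10 as reported, numbered 8 to 18, the most without day 0 replicate 1, and no share of all loci is given for these fits. With the replicate number as a block, 35 loci and 27 of 63 neighbours (42.9%) were lower, against 23.1% of all loci tested. Same-numbered samples were compared by the deviations of their log2 values from the stage mean. These deviations had correlations of 0.176, 0.134 and 0.0741, so the numbers were not taken as pairs, though each library's deviations correlated best with those of its own number. All 462 refitted values of the 31 loci named by rule kept direction and call. Of these 31, 19 were among the 35, and the others lay near a threshold or were picked by their change. The outcome was thus largely fixed by the choice, and some of these loci passed the filter through 1 stage alone. At day 6, under 100 normalized counts per locus limit the precision of each ratio.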
